A study of Arabidopsis thaliana with 6 samples.

Results

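The LRR-I group is a family of plant receptor kinases whose outer part carries a malectin-like domain and a short stretch of leucine-rich repeats, followed by a membrane span and a kinase inside the cell. The members were taken from a list of 48 Arabidopsis thaliana loci of this group and its close relatives. A locus was measured where the platform annotation pairs a probe set with that locus alone, which held for 38 of the 48, among 13513 probe sets paired with 1 gene and 22810 probe sets in all. RNA of 2-week-old seedlings had been hybridized to Affymetrix ATH1 arrays, on which a probe set is a group of short oligonucleotides that reads a transcript. There were 3 arrays of Col-0 wild type (stock N1092) and 3 of a transgenic line overexpressing ASL9, an LBD-family transcription factor, labelled ASL9-ox. All plants stood vertically on Murashige and Skoog agar, and the tissue was labelled as aerial parts, although the extraction protocol speaks of seedlings without mention of dissection. The labels give neither the promoter of the transgene nor the number of lines behind the ASL9-ox arrays, nor the accession of the line.

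Malectin-like domains of plants resemble an animal protein that binds sugars, and receptors carrying one have been studied for roles in cell wall sensing, immunity and growth. LRR-I kinases sit largely in tandem arrays of related genes. FRK1, a kinase gene of this group induced by the bacterial flagellin peptide flg22, is widely used as a readout of pattern-triggered immunity, and IOS1 is named for the impaired susceptibility of its mutant to an oomycete. RHS6 and RHS16 are named for root hair expression, and MEE39 for an embryo arrest phenotype. None of these 5 had a probe set paired with it alone, so their levels are not reported here.

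The other loci not measured were AT1G51870, AT3G46420 and AT5G16900, and AT2G14440 and AT2G14510, which share a probe set. That shared probe set read between 0.155 and 2.69 on the 6 arrays. Each of the 38 measured loci was read by 1 probe set, and none of these carried the suffix that marks a probe set matching several transcripts (0 of 38). Whether close relatives in a tandem array also bind to a probe set was not tested.

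Most members were dim. Of the 38, 30 (78.9%) read below a signal of 16 on all 6 arrays, against 36.3% of the probe sets paired with 1 gene. Signals are the authors' linear values, which were scaled to a trimmed mean of 100.01 on every array, and no detection calls came with them, so a dim value could not be set against background. Only 6 members read at least 16 on all 3 wild-type arrays and 4 on all 3 ASL9-ox arrays. Tests were made on log2(signal + 16) after the dimmest 25% of probe sets had been left out, a limit that lay at a signal of about 6.60, and 13 members passed it. A member can pass that limit through the group in which it is high. Among the called members this held for AT3G46280, with a mean log2(signal + 16) of 4.23 in ASL9-ox against a limit of 4.50. It also held for AT5G59670 and AT5G59680, with means of 4.29 and 4.26 in wild type. Fold changes are on the log2(signal + 16) scale, as ASL9-ox minus wild type, and understate changes of dim genes. "Rose" and "fell" mean an adjusted p below 0.05 in limma's moderated test, with adjustment over all 17059 probe sets tested.

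Among the 13 tested members 4 rose, 3 fell and 6 did not pass. The 7 called members make up 53.8% of those tested, where 41.6% of all probe sets tested were called (24.6% in the upward and 17% in the downward direction). By at least 2-fold 1 member rose and 2 fell, where 2.61% of all probe sets rose and 4.53% fell by that much. The median log2 fold change was 0.15 over the 13 members and 0.08 over all probe sets tested. The groups did not overlap in 8 of the 13, 4 of them higher and 4 lower in ASL9-ox, where 54% of all probe sets did not overlap. These shares describe the members that passed the limit on dim signals and not the whole family. Of the called members, AT3G46280, AT5G59670 and AT5G59680 lay below that limit in the mean of their lower group.

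**Figure D1:**
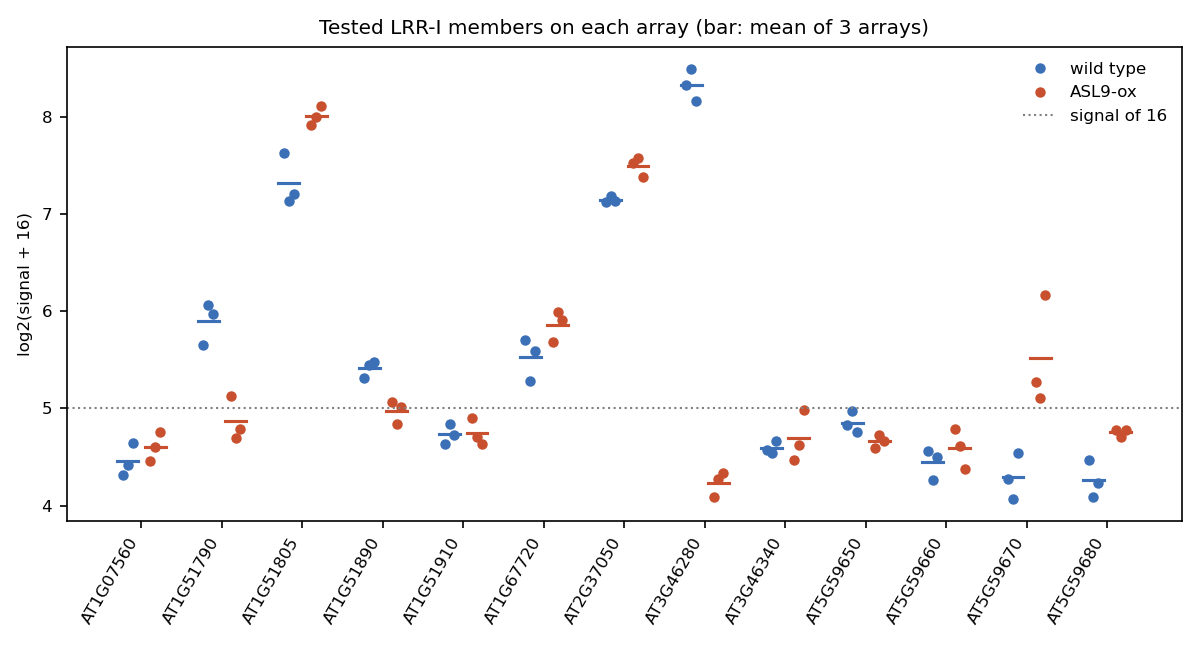
Log2(signal + 16) of the 13 tested members on each of the 6 arrays, with wild type in blue, ASL9-ox in red and a bar at the mean of each group's 3 arrays; the dotted line marks a signal of 16. AT3G46280 shows the widest gap, and 6 members lie below the line on every array. Heights of different genes are read by different probe sets and are not comparable.

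AT3G46280, a close relative of the kinases in the list, showed by far the largest change of the 38 measured members on the log2(signal + 16) scale. It read 304, 345 and 271 on the 3 wild-type arrays and 0.970, 3.27 and 4.11 on the 3 ASL9-ox arrays. Every wild-type value lay far above every ASL9-ox value, and all ASL9-ox values lay below 16. The log2 fold change was -4.10 ± 0.11 (SE, n = 3 per group, limma adjusted p = 2.54e-08), a fall of 17.2-fold on this scale. A fall of at least 8-fold was called for 0.422% of all probe sets tested. Because the ASL9-ox signals lay below 16, the size depends on the number added: the log2 fold change was -6.45 with 1 added and -2.47 with 64 added.

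The locus next to it in the list, AT3G46270, read 1.71, 3.39 and 1.15 in wild type and 1.40, 0.287 and 1.55 in ASL9-ox. It lay below the limit on dim signals. The groups overlapped, and in the fit with no probe set left out for dimness its log2 fold change was -0.08 ± 0.07 (SE, limma adjusted p = 0.452). By gene order in RefSeq TAIR10.1, 8 listed loci lie in the stretch from AT3G46270 to AT3G46420, with 9 other protein-coding genes among them. Of the 6 measured, AT3G46280 and AT3G46340 were tested. AT3G46340 had a log2 fold change of 0.10 (95% interval -0.24 to 0.44), with all its signals below 16, and did not pass. The change of AT3G46340 exceeded that of AT3G46280 by 4.199 ± 0.163 (SE) on the log2 scale, and the array-by-array difference between both probe sets did not overlap between the groups. An exact permutation test of that difference gave p = 0.1 (two-sided), which is the smallest p that 3 arrays against 3 allow. The test reuses the signals behind the call of AT3G46280, which passed the limit on dim signals through wild type. It adds no separate support to that call. Of the dim members in this stretch, AT3G46370 read 0.368 to 0.586 in wild type and 0.964 to 5.78 in ASL9-ox, without overlap. In the fit with no probe set left out for dimness it did not pass (log2 fold change 0.24, limma adjusted p = 0.0993). AT3G46350 and AT3G46400 overlapped between the groups.

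**Figure D2:**
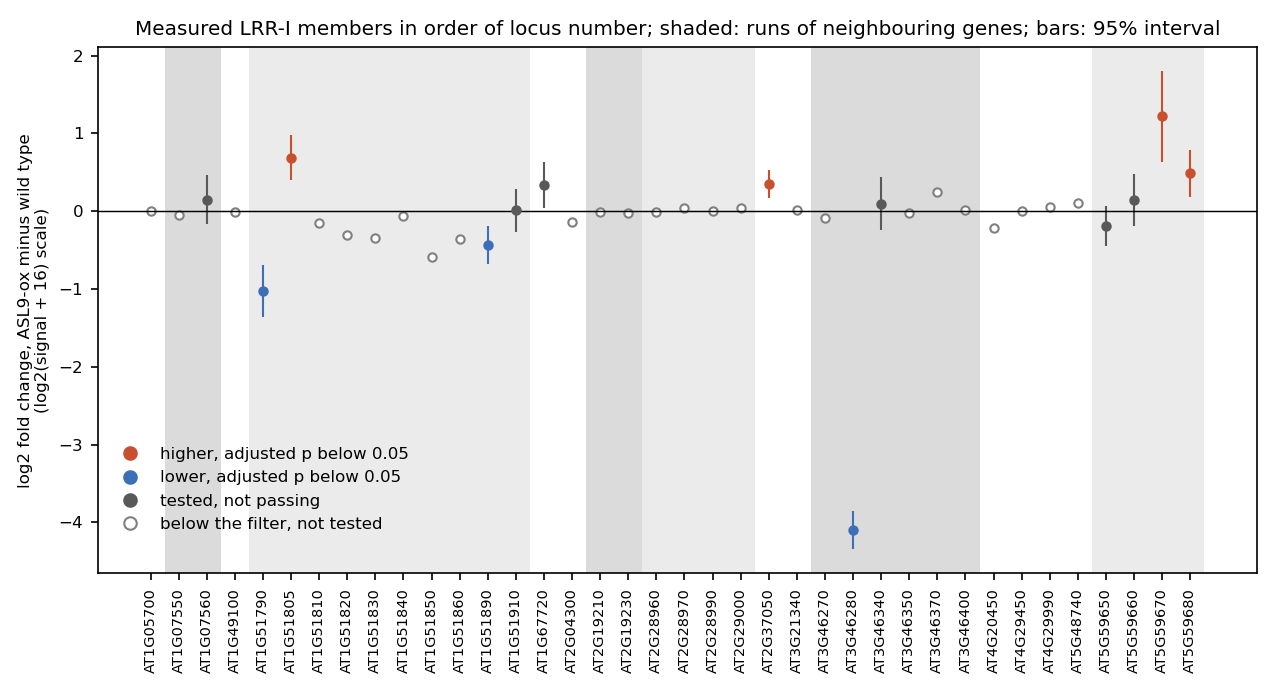
Log2 fold change (ASL9-ox minus wild type) of the 38 measured members in order of locus number, with stretches of neighbouring members shaded. Filled points are the 13 tested members with 95% intervals, red for a rise, blue for a fall and grey for no call, and open points are the 25 members too dim to be tested. AT3G46280 lies at -4.10 and all other members between -1.02 and 1.22.

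The stretch with the most listed loci, from AT1G51790 to AT1G51910, holds 13 of them among 15 neighbouring protein-coding genes, and its measured kinase genes did not move in 1 direction. AT1G51790 fell: it read 34.3, 50.7 and 46.6 in wild type and 19.0, 9.86 and 11.7 in ASL9-ox. The lowest wild-type array lay above the highest ASL9-ox array. Its log2 fold change was -1.02 ± 0.15 (SE, n = 3 per group, limma adjusted p = 0.000581). Since 2 of its ASL9-ox values lay below 16, the size depends on the number added. The log2 fold change was -1.66 with 1 added to the signals and -0.48 with 64 added.

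AT1G51805, separated from it by 1 gene, rose. It read 181, 124 and 131 in wild type and 225, 239 and 260 in ASL9-ox, so that all ASL9-ox arrays lay above all wild-type arrays. Its log2 fold change was 0.69 ± 0.13 (SE, limma adjusted p = 0.00240), and it was among the 3 measured members with no array below 16. Within the arrays, the change of AT1G51805 exceeded that of AT1G51790 by 1.71 ± 0.33 (SE) on the log2 scale, without overlap between the groups (exact permutation test, p = 0.1, the smallest possible). The size of this difference depends on the number added, as does the change of AT1G51790.

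AT1G51890, nearer the other end of the stretch, also fell, from 23.8, 27.7 and 28.6 to 17.5, 12.6 and 16.4. The groups did not overlap, and the log2 fold change was -0.44 ± 0.11 (SE, limma adjusted p = 0.010). Its neighbour AT1G51910, with 1 gene between them, read 8.84 to 12.7 in wild type and 8.85 to 13.9 in ASL9-ox. The groups overlapped, the log2 fold change was 0.01 (95% interval -0.27 to 0.29), and it did not pass.

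The other 6 measured kinase genes of this stretch were too dim to be tested under the limit, with log2 fold changes from -0.59 to -0.06. In all, 8 of the 10 measured members of the stretch had a log2 fold change below 0, AT1G51805 and AT1G51910 being the others. Of those 8, AT1G51790 and AT1G51890 were called and the other 6 were not tested. The share of all probe sets below 0 was not counted, so no shared direction is read from this count. AT1G51850 read 17.0, 10.6 and 5.71 in wild type and 5.04, 0.232 and 0.230 in ASL9-ox. AT1G51830 read 5.39, 6.95 and 2.80 in wild type and 0.413, 0.840 and 0.436 in ASL9-ox. In both the groups did not overlap, and every value but 1 lay below 16. When no probe set was left out for dimness, these 2 had limma adjusted p-values of 0.0358 and 0.0206. In that fit 9 of the 38 members passed, 5 lower and 4 higher, where 29.3% of all 22746 probe sets passed. AT1G51860 read 14.7 on wild-type replicate 2 but 1.58 and 1.91 on the other wild-type arrays, against 0.477 to 0.687 in ASL9-ox, and did not pass without the limit either (limma adjusted p = 0.240). AT1G51810, AT1G51820 and AT1G51840 overlapped between the groups.

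The 4 listed genes from AT5G59650 to AT5G59680 lie side by side with no other protein-coding gene among them, all 4 were tested, and the 2 at the higher-numbered end rose. AT5G59670 read 3.29, 0.746 and 7.29 in wild type and 22.5, 18.4 and 56.0 in ASL9-ox. All wild-type values lay below 16 and all ASL9-ox values above it, with ASL9-ox replicate 3 more than 2-fold above the other ASL9-ox arrays. The log2 fold change was 1.22 ± 0.26 (SE, n = 3 per group, limma adjusted p = 0.00480), and 0.89 without ASL9-ox replicate 3 (adjusted p = 0.00456). It was 2.90 with 1 added to the signals and 0.49 with 64 added.

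AT5G59680 read 6.17, 0.995 and 2.75 in wild type and 11.5, 10.0 and 11.4 in ASL9-ox. The groups did not overlap, yet all 6 values lay below 16, the only called member for which this was so. Its log2 fold change was 0.49 ± 0.13 (SE, limma adjusted p = 0.0170). This call was lost without wild-type replicate 2 (adjusted p = 0.0507), without wild-type replicate 3 (0.0522) and with arrays centred on the hybridization controls (0.0559), within a range of 0.00791 to 0.0559 over the 14 alternatives that tested it. With 1 added, with the dimmest 50% left out, or with any of the 3 ASL9-ox arrays left out it fell below the limit on dim signals and was not tested.

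AT5G59650 read 12.4, 15.3 and 11.0 in wild type and 8.19, 10.4 and 9.30 in ASL9-ox, without overlap, but its log2 fold change of -0.19 (95% interval -0.45 to 0.07) did not pass. AT5G59660 overlapped between the groups and had a log2 fold change of 0.15 (95% interval -0.19 to 0.48). The change of AT5G59670 exceeded that of AT5G59660 by 1.07 ± 0.45 (SE) and that of AT5G59680 by 0.73 ± 0.35 on the log2 scale. AT5G59660 and AT5G59680 read below 16 on every array, so the sizes of these differences depend on the number added. In this way 7 pairs of successive tested members within a stretch were compared, with 0 to 9 genes between them. Of these, 6 gave the smallest possible exact permutation p of 0.1, or 0.117 after Benjamini-Hochberg adjustment over the 7 pairs. The pair of AT5G59650 and AT5G59660 gave 0.3. With 3 arrays per group this test cannot reach 0.05. The pairs reuse the signals behind the calls above, so they add no separate support to them. They were also formed only from members above the limit on dim signals. AT3G46280, AT5G59670 and AT5G59680 passed that limit through their higher group, so a lack of overlap in their pairs was likely from the outset.

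**Figure D3:**
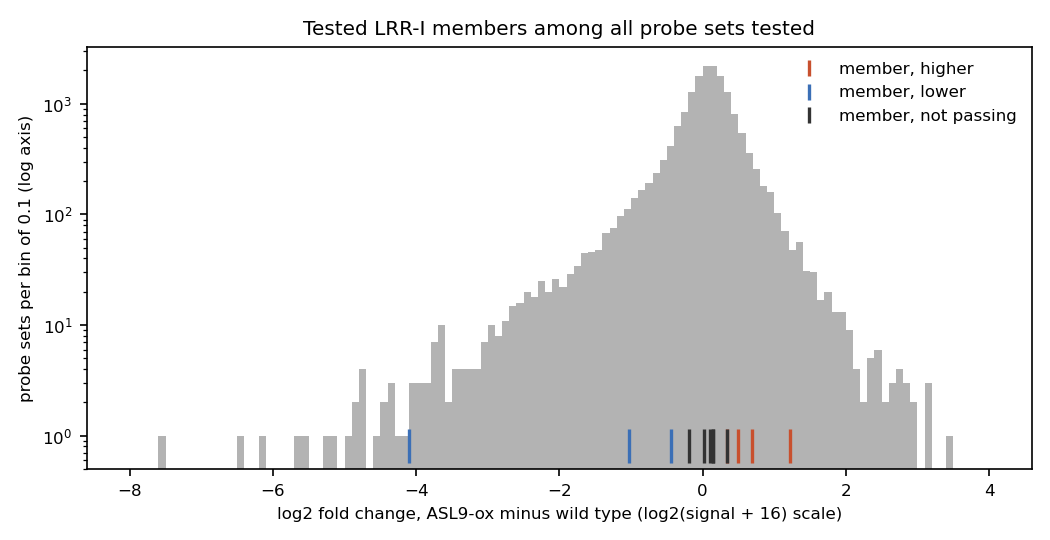
Histogram of the log2 fold changes of all 17059 probe sets tested (grey, bins of 0.1, log axis), with the 13 tested members as ticks, red for a rise, blue for a fall and black for no call. AT3G46280 at -4.10 lies in the far lower tail, and the other 12 lie between -1.02 and 1.22.

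Of the members outside such stretches, 2 were tested. AT2G37050 rose slightly, from 124, 129 and 124 in wild type to 168, 175 and 151 in ASL9-ox. The groups did not overlap, and the log2 fold change was 0.35 ± 0.08 (SE, n = 3 per group, limma adjusted p = 0.00742). With arrays centred on the hybridization controls it was 0.26 and did not pass (adjusted p = 0.139, with a range of 0.00611 to 0.139 over the alternatives). AT1G67720 read 36.0, 23.0 and 32.2 in wild type and 35.2, 47.7 and 44.0 in ASL9-ox. The groups overlapped through wild-type replicate 1 and ASL9-ox replicate 1, and the log2 fold change of 0.33 (95% interval 0.04 to 0.63) missed the threshold (adjusted p = 0.0712). It passed without either of those arrays (adjusted p = 0.0481 and 0.0471, in a range of 0.0471 to 0.217 over the alternatives).

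The remaining members gave little signal in either group. AT1G07560 was tested, with all values below 16 and a log2 fold change of 0.15 (95% interval -0.17 to 0.46). The 25 members that were not tested read between 0.204 and 17.0, with log2 fold changes from -0.59 to 0.24, and in 4 of them (16%) the groups did not overlap, against 14% of all 5687 probe sets below the limit. They include all 4 genes from AT2G28960 to AT2G29000, which read 0.235 to 7.50 with log2 fold changes from -0.01 to 0.04. They also include AT2G19210 and AT2G19230, which lie near FRK1 and read 0.242 to 1.08. AT1G05700, AT1G07550, AT1G49100, AT2G04300, AT3G21340, AT4G20450, AT4G29450, AT4G29990 and AT5G48740 overlapped between the groups as well.

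**Figure D4:**
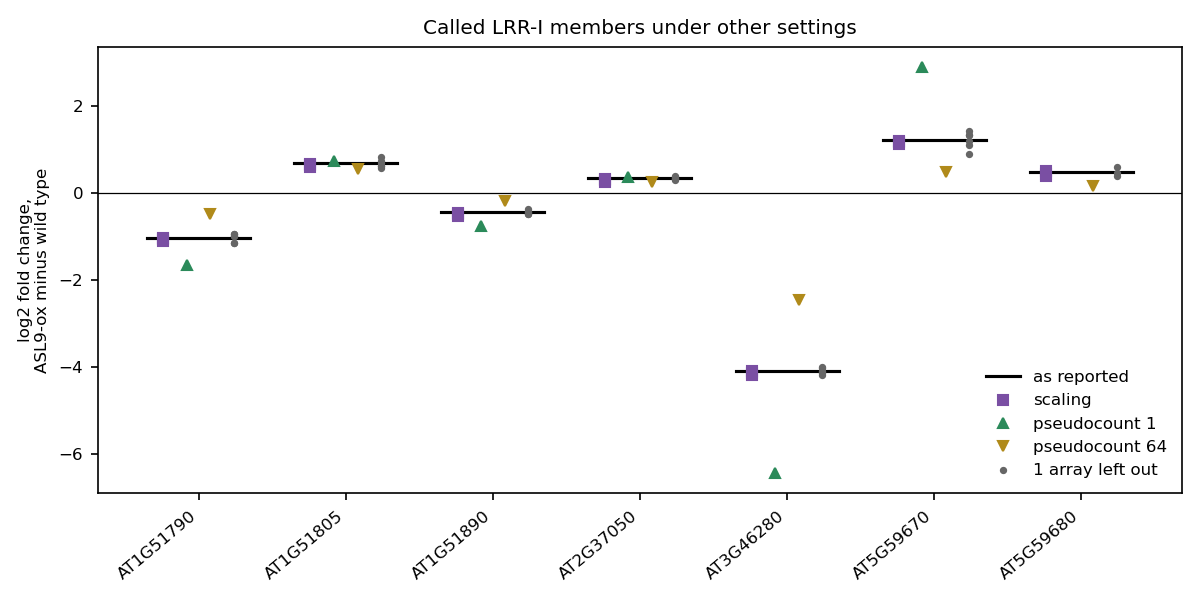
Log2 fold change of the 7 called members as reported (black bar), with 3 other scalings (squares), with 1 or 64 in place of 16 added to the signal (triangles), and with each array left out in turn (dots). Every value keeps its sign. The number added moves AT3G46280 between -6.45 and -2.47, AT1G51790 between -1.66 and -0.48 and AT5G59670 between 0.49 and 2.90. AT5G59680 has no value with 1 added or with any of the ASL9-ox arrays left out, since it then fell below the limit on dim signals.

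Other receptor kinase groups were set beside the LRR-I members in the same fit, in which 41.6% of all probe sets were called, 24.6% higher and 17% lower. The groups hold too few tested genes for their counts to be read against these shares. Of 17 listed CrRLK1L genes, the family of the wall-sensing receptor FERONIA, 12 were measured and 7 tested, of which 3 fell, 1 rose and 3 did not pass. The largest fall was that of AT2G39360, from 68.3, 70.0 and 73.4 in wild type to 26.7, 28.1 and 29.6 in ASL9-ox, without overlap (log2 fold change -0.97 ± 0.08, SE, limma adjusted p = 2.22e-05). THE1 encodes a receptor known for restraining growth when cellulose synthesis is impaired. Its signal was 154 ± 5.94 in wild type and 109.7 ± 6.67 in ASL9-ox (SD over 3 arrays), and its log2 fold change was -0.44 (limma adjusted p = 0.00193). AT5G24010 had a log2 fold change of -0.38 (adjusted p = 0.0390) and AT2G23200 one of 0.42 (adjusted p = 0.0104; 0.0535 with centring on the hybridization controls, in a range of 0.00852 to 0.0535 over the alternatives). For AT5G24010 the adjusted p was 0.0980 without wild-type replicate 2, 0.133 without wild-type replicate 3, 0.127 without ASL9-ox replicate 1 and 0.0677 without ASL9-ox replicate 3. With no probe set left out for dimness it was 0.0758, in a range of 0.0187 to 0.133 over the alternatives. FER itself, with a log2 fold change of -0.05 (95% interval -0.22 to 0.11), did not pass.

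Of 12 listed LRR-VIII kinases, which combine leucine-rich repeats with a malectin domain, 3 were tested and 2 rose, AT1G07650 by 0.69 (adjusted p = 0.000127) and AT1G53440 by 0.38 (adjusted p = 0.0177) on the log2 scale. AT1G53430, at -0.05, did not pass. The call of AT1G53440 was lost without wild-type replicate 3 (adjusted p = 0.0628), without ASL9-ox replicate 3 (0.0575) and with centring on the hybridization controls (0.0815), in a range of 0.00733 to 0.0815 over the alternatives. Of 22 listed developmental LRR receptor kinases 4 were tested. EMS1, needed for anther cell fate, rose by 0.54 (limma adjusted p = 0.00278). BRL1, which encodes a receptor for brassinosteroid hormones, fell by 0.53 (limma adjusted p = 0.00660). EMS1 read below 16 on 2 wild-type arrays, and BRL1 on 1 wild-type and 3 ASL9-ox arrays, so both sizes depend on the number added. The log2 fold change of EMS1 was 0.94 with 1 added and 0.23 with 64 added. That of BRL1 was -1.12 and -0.20. PSY1R and GSO1, at 0.17 and 0.06, did not pass.

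Genes that act with pattern receptors were thinly covered. Of 21 listed receptors, co-receptors and partners 3 were tested. BIK1, a cytoplasmic kinase that relays signals from pattern receptors, fell from 166, 195.5 and 187 in wild type to 91.3, 98.1 and 102 in ASL9-ox, without overlap (log2 fold change -0.81 ± 0.09, SE, limma adjusted p = 8.63e-05). The receptor gene EFR, at -0.19 (95% interval -0.47 to 0.09), and SD1-29, at 0.12, did not pass. Of 15 listed genes of the MAP kinase cascade and the early response, WRKY22 alone was tested, and it did not pass (-0.03, 95% interval -0.28 to 0.22). None of the 14 listed genes of salicylic acid synthesis and response had a probe set paired with it alone (0 measured).

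**Figure D5:**
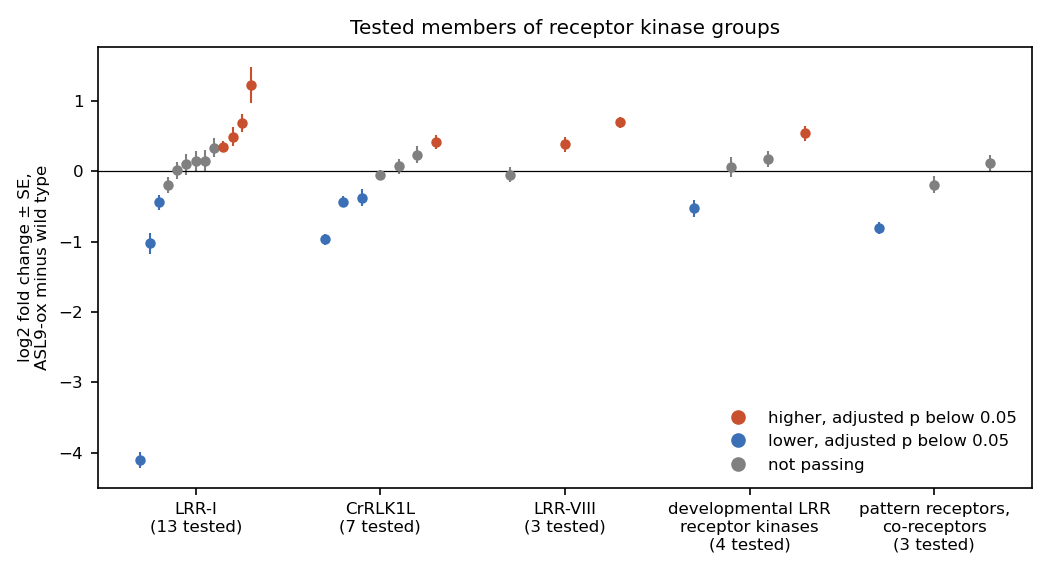
Log2 fold change with its SE for every tested gene of 5 receptor kinase groups, in order of size within each group, red for a rise, blue for a fall and grey for no call. All groups but LRR-VIII and the pattern receptors hold genes called in both directions, and AT3G46280 at -4.10 stands below every other gene shown.

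Markers of roots, leaves and seeds differed between arrays. The measured root marker, PYK10, a beta-glucosidase gene typical of roots and hypocotyls, read 3168, 2847 and 3149 in wild type and 408, 428.5 and 453 in ASL9-ox (a fall, log2 fold change -2.78, limma adjusted p = 2.14e-08), and the other 14 root markers listed were not measured. The 2 measured of 15 root hair markers summed to 4.47 to 17.7 in wild type and 5.75 to 17.5 in ASL9-ox. The 5 measured of 11 leaf photosynthesis markers summed to 13845 to 15588 in wild type and 20348 to 20890 in ASL9-ox. All 5 were called higher, where 24.6% of all probe sets tested were called higher. The call of RCA was lost in 12 of 19 alternatives, among them the replicate block (limma adjusted p = 0.0656, in a range of 0.0173 to 0.392 over the 19), and its log2 fold change was -0.092 with quantile normalization. The 3 measured of 13 seed maturation markers summed to 1619 on wild-type replicate 2, to 8.65 and 11.4 on the other wild-type arrays and to 12.5 to 14.1 in ASL9-ox. That array had the largest residual SD of the 6 (0.228 against 0.128 to 0.160 on the log2 scale). It gave the highest wild-type signal for 17 of the 38 members, against 11 and 10 for wild-type replicates 1 and 3. Among the ASL9-ox arrays, replicate 3 gave the highest signal for 16 of the 38, and replicates 1 and 2 for 12 and 10. The same count over all probe sets was not made. Without wild-type replicate 2 the log2 fold change was -4.02 for AT3G46280, -0.94 for AT1G51790 and 1.11 for AT5G59670. Each had an adjusted p below the threshold. Whether root or hypocotyl tissue was in the samples, and to what extent in each group, was not tested, nor was the part of these markers in the changes of the LRR-I members. In whole tissue, fewer cells of a type and less RNA per cell cannot be told apart. No probe set was paired with ASL9 (0), so the directions rest on the labels.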

How the data were processed

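The deposited intensity values came from the Affymetrix programs MAS5 and GCOS, per the submitters' processing notes, with no version given in the sources used here. Every array had a trimmed mean of 100.01, so a shift of all transcripts is not visible. On each array 36.8% to 37.9% of probe sets read below 16. Names came from the platform annotation, symbols and gene order from RefSeq TAIR10.1. Loci with at most 5 protein-coding genes between them formed a stretch.

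After removal of 64 control probe sets and of the 25% with the lowest mean log2(signal + 16), 17059 of 22810 were fitted with limma 3.58.1 in R 4.3.3 (lmFit, eBayes with an intensity trend, two-sided, Benjamini-Hochberg). The prior had 5.11 degrees of freedom. The labels do not say that replicates were separate cultures, so the p-values cover the spread between these samples alone, which may be technical. The 3 arrays per group limit the precision.

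Members and gene lists were chosen with earlier results of these data known. Every measured member is accounted for, and those called, changed at least 2-fold and without overlap are given by array. Of each list of receptor or immune genes with a tested gene, up to 4 called genes with the largest change were named. Where none was called, the gene with the smallest p was named. Some tested genes without a call were named beside them. Marker lists were given by the count measured and the summed signal, with PYK10 and RCA named. Figures were drawn with matplotlib 3.10.9. Deviations from the group means of same-numbered arrays had correlations of -0.12, -0.06 and 0.02, and the samples were treated as unpaired. The alternatives tried are given in the closing section.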

Additional observations from a re-analysis of the deposited data

How the results depend on the processing

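The number of called members was 7 as reported and ran from 3 to 9 over the alternatives, which covered 3 other scalings, 1 or 64 added to the signals, 2 other limits on dim probe sets, 2 other variance models, array weights, averaging the probe sets of each gene, a threshold of 0.01, the replicate number as a block, and each array left out. With the dimmest 50% left out 3 members were tested and called (47.7% of all probe sets tested there), 2 higher and 1 lower, with 1 fall and 0 rises of at least 2-fold. With no limit 5 members fell in place of 3, and 3 CrRLK1L genes in place of 4 were called. With centring on the hybridization controls (18 probe sets) 2 members rose in place of 4, while the share of all probe sets that rose went from 24.6% to 13.8%, and 1 LRR-VIII gene in place of 2 and 3 CrRLK1L genes in place of 4 were called. With 64 added there were 1 fall and 0 rises of at least 2-fold. At the threshold of 0.01, 5 LRR-I members in place of 7 passed, 3 higher and 2 lower, as AT1G51890 and AT5G59680 were lost. There 2 CrRLK1L genes in place of 4 and 1 LRR-VIII gene passed, with 26.8% of all probe sets. With 1 array left out, 6 to 8 members passed, 3 to 5 higher and 3 lower, with 1 or 2 falls and 0 or 1 rises of at least 2-fold, since AT1G51790 and AT5G59670 lie close to that mark; 3 or 4 CrRLK1L and 1 or 2 LRR-VIII genes were called. With the replicate block 7 members passed, and the block changed no call of a member. For AT3G46280, AT1G51790, AT1G51805 and AT5G59670 every alternative that tested them gave the same direction and side of the threshold. Among the leaf markers RCA had a log2 fold change of -0.092 with quantile normalization in place of 0.18. Planned comparisons of promoter motifs and protein identities were not run. Under the limit on dim signals 25 of 38 members were not tested. For the changes in counts not tied above to fewer genes tested or to the number added, the cause was not tested.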
